A study of Rattus norvegicus with 6 samples.

Results

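The genes described here are those of hepcidin and of iron handling in the liver: Hamp, Tfr2, Tfrc, Tf, Slc40a1, Bmp6, Id1, Smad7, Tmprss6 and Hfe. They were chosen by symbol, after earlier results had placed Hamp among the genes with the largest differences between diets, and a gene was measured by the probe set whose annotation gave its symbol alone. All 10 genes had 1 such probe set, of 14506 named genes on the array, and all 10 passed the filter on low values. Livers came from adult male Wistar rats, 5 per diet and 30 in all, that had adapted to the normal protein diet for 10 days and then ate 1 of 6 diets for 33 to 37 days. The diets were normal protein with low fat (NP), normal protein with high sucrose and low fat (NP-HS), normal protein with high sucrose and high fat (NP-HS-HF), and the same backgrounds with high protein (HP, HP-HS and HP-HS-HF). Livers were taken in the fed state, 2 h after a meal fixed at 87.6 kJ. A single array per diet received the pooled RNA of its 5 animals, so a diet has 1 value, the spread between rats was not measured, and the number of arrays limits the precision.

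Hepcidin, the product of Hamp, is a peptide hormone made by hepatocytes that binds the iron exporter ferroportin and causes its degradation, which lowers the release of iron into plasma. Hepatocytes set its transcription through bone morphogenetic protein (BMP) signalling to SMAD factors, which follows iron stores and transferrin saturation, and through interleukin 6 and STAT3 during inflammation. The BMP ligand for this comes mainly from the sinusoidal endothelium, and Id1, Smad7 and Atoh8 are common targets of the same signal.

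The start of the Hamp gene carries short motifs of both inputs, and it is shown because Hamp is the member that varied most. Sequences of 300 bases, from 250 before to 50 after the transcription start, came from RefSeq promoters of build GRCr8, in which 8 of the 10 members matched. Both strands were searched for GGCGCC, the core of a BMP response element, for TTCNNNGAA, a STAT motif, for CACGTG, an E-box, and for TATAAA. Capitals mark GGCGCC and TTCNNNGAA in the sequences, written 5′ to 3′ on the strand of the gene. Hamp lies at chr1:95300222-95300521 (minus strand), Tfrc at chr11:81690269-81690568 (minus strand) and Id1 at chr3:161671314-161671613 (plus strand).
Hamp: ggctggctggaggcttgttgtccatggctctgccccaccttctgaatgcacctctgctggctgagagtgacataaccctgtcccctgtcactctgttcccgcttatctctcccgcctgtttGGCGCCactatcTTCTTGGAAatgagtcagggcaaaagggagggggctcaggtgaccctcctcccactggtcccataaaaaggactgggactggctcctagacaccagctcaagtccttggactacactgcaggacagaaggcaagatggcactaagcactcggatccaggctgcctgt
Tfrc: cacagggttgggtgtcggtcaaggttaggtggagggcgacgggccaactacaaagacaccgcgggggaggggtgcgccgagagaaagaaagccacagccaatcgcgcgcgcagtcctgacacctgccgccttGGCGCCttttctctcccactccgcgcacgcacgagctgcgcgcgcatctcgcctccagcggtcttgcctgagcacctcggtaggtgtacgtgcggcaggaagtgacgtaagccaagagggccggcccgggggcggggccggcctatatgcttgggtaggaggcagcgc
Id1: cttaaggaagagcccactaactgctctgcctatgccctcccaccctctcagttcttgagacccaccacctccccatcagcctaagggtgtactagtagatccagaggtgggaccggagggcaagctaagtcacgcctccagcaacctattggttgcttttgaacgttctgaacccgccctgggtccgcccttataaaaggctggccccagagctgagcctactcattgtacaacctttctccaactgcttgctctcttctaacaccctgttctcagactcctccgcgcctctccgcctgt
In Hamp, GGCGCC stood at -129 to -124 and the STAT motif, as TTCTTGGAA, at -117 to -109, counted from the start site, and the matches do not overlap. Tfrc had GGCGCC at -118 to -113, and Smad7 had it at -96 to -91 and at -36 to -31. Id1 had neither capitalised motif in this window, and it had TATAAA at -59 to -54, as Tf had at -52 to -47. Of 33469 promoters of this length, 11.0% held GGCGCC, 8.87% the STAT motif, 6.42% CACGTG and 14.2% TATAAA, and 0.547% (183) held GGCGCC together with the STAT motif. Among the 8 matched members these motifs were found in 3, 1, 0 and 2, and Hamp was the member with both of the first pair. A match is a description of the letters, and binding was not measured here.

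Hamp (probe set 10720829) stood at log2 9.03 on NP, 9.72 on NP-HS, 9.34 on NP-HS-HF, 9.21 on HP, 6.94 on HP-HS and 9.20 on HP-HS-HF. The HP-HS pool was thus low, and the other 5 pools lay nearer to each other than to it. The step from HP-HS to the next array, NP, was 2.10 on the log2 scale (4.28-fold), whereas the other 5 arrays spanned 0.69 (1.61-fold). That span was still wider than the range of any other member over all 6 arrays, at most 0.53. Among those 5 the steps were 0.16 from NP to HP-HS-HF, 0.0085 to HP, 0.14 to NP-HS-HF and 0.38 to NP-HS, and no diet has a replicate against which to set such steps. The prior residual SD in the fit across all probe sets was 0.094, and it does not separate array noise from an interaction of protein with background. Hamp's range over the arrays, 2.79, ranked 2 among 11421 named genes tested, after that of the collagen cross-linking enzyme Lox at 2.82.

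**Figure D1:**
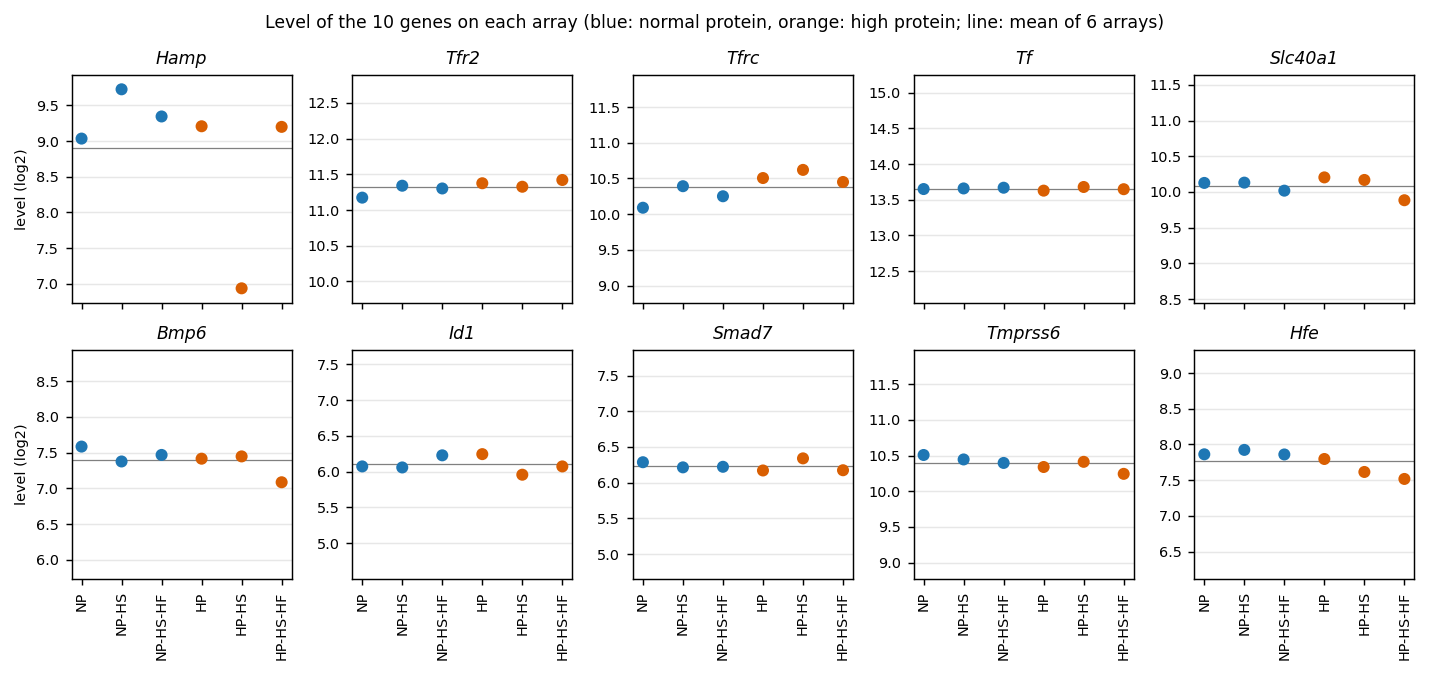
Level of each of the 10 genes on each of the 6 arrays (log2, RMA values, 1 pool of 5 rats per point), with the mean of the 6 arrays as a line and the same span of the vertical axis in every panel. Hamp on HP-HS, at 6.94, is the point farthest from its line, which is at 8.91, and Hamp on NP-HS, at 9.72, also lies well off that line. The other 9 genes span 0.05 to 0.53.

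These values chose Hamp, so its differences are a description and carry no test. High protein against normal protein gave 0.17 in the low fat background (1.13-fold higher), -2.79 with sucrose (6.90-fold lower) and -0.15 with sucrose and fat (1.11-fold lower). Sucrose against low fat gave 0.69 at normal protein (1.61-fold higher) and -2.27 at high protein (4.82-fold lower). Fat added to sucrose gave -0.38 at normal protein (1.30-fold lower) and 2.26 at high protein (4.79-fold higher). The 3 differences past 2-fold all contain the HP-HS array, so they are not separate results. Over the whole diet change from low fat to high sucrose with high fat, Hamp differed by 0.31 at normal protein and by -0.0085 at high protein. The sucrose difference at high protein minus that at normal protein was -2.96, a quantity that exceeded 1.5-fold in 3.07% of the 20450 probe sets tested. The corresponding value for fat was 2.64, with 2.61% of probe sets past 1.5-fold. For sucrose and fat together it was -0.32, short of 1.5-fold, which 3.29% of probe sets passed. Among the other 9 members these differences of differences lay between -0.27 and 0.24 for sucrose and between -0.45 and 0.13 for fat.

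Fitted over all 6 arrays with terms for protein and background, the protein effect of Hamp was -0.92 ± 0.529 (SE, 3 pairs of arrays), the sucrose effect -0.79 ± 0.648 and the fat effect 0.94 ± 0.648. Its sucrose and fat effect was 0.15 ± 0.648. With no replicate array, these SE hold the interaction of protein with background as well as array noise. Without the HP-HS array, or without NP-HS, the protein effect was 0.01, and without HP-HS the sucrose effect was 0.61 and the fat effect -0.46. Without NP-HS the sucrose effect was -2.19 and the fat effect 2.34. Leaving out HP gave a sucrose effect of 0.03 and leaving out NP one of -1.61, and the fat effect was 1.52 without NP-HS-HF and 0.36 without HP-HS-HF. The sucrose and fat effect was -0.67 without NP, -0.43 without HP-HS-HF, 0.97 without HP and 0.73 without NP-HS-HF. The direction of every fitted effect of Hamp thus turned with at least 1 array left out.

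The HP-HS array held few probe sets of this kind. At least 2-fold below every other array lay 3 of the 20450 tested (0.0147%), and 2 of these are named genes. They are Hamp and Rgs16, a regulator of G protein signalling, whose gap was 1.24. On each of the other 5 arrays between 0 and 2 probe sets were as low. The 6 arrays correlated with each other at Pearson r between 0.9949 and 0.9964 over all probe sets, as a description. Hepatocyte markers such as Alb were present on every array, and their summed linear level was 89966 to 92057 on the NP arrays and 91858 to 94621 on the HP arrays, with the highest on HP-HS. Of these 10 markers, 6 were higher on average with high protein, 2 were highest on HP-HS and 1 was lowest there. The same counts over all 20450 probe sets tested were 10100, 3060 and 3180. A linear sum is weighted towards the genes with the highest levels. In a bulk sample fewer cells of a type and less RNA per cell cannot be told apart.

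The BMP-SMAD members did not show a low value of this size on HP-HS. Bmp6, the endothelial ligand (probe set 10797949), stood at 7.59 on NP, 7.38 on NP-HS, 7.47 on NP-HS-HF, 7.42 on HP, 7.45 on HP-HS and 7.09 on HP-HS-HF. Its lowest array was therefore HP-HS-HF, and HP-HS lay within the range of the normal protein arrays. The protein difference of Bmp6 was -0.17 for the low fat pair, 0.07 for the sucrose pair and -0.38 for the pair with sucrose and fat. Sinusoidal endothelial markers (10 measured, all above the filter on low values) were summed to 5666 to 5956 on the NP arrays and 5883 to 5937 on the HP arrays, and 9 of 10 were higher on average with high protein. Among all probe sets tested, 10100 of 20450 were higher on average with high protein. The part of the endothelial markers in the Bmp6 values was not tested.

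Id1, an inhibitor of helix-loop-helix factors induced by BMP (probe set 10840890), stood at 6.07 on NP, 6.06 on NP-HS, 6.23 on NP-HS-HF, 6.24 on HP, 5.96 on HP-HS and 6.07 on HP-HS-HF. HP-HS was its lowest array, as for Hamp, but by 0.10 below NP-HS and with a range of 0.29 over all arrays. Id1 is a low probe set (mean 6.11) that did not pass the stricter filter, at the 50th percentile. Whether a difference shows fully at such a level was not tested. Smad7, the inhibitory SMAD of the pathway (probe set 10802734), stood at 6.29, 6.21, 6.22, 6.17, 6.34 and 6.17 in the same order of arrays. Its highest value was that of HP-HS, the opposite of Hamp and Id1, within a range of 0.17 and at a low mean level of 6.23. Both genes overlapped between protein levels, and their protein effects were -0.03 ± 0.085 and -0.01 ± 0.075 (SE).

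Tmprss6 encodes matriptase-2, a protease that cuts hemojuvelin and so restrains hepcidin (probe set 10905289). It stood at 10.51 on NP, 10.45 on NP-HS, 10.40 on NP-HS-HF, 10.34 on HP, 10.41 on HP-HS and 10.24 on HP-HS-HF. The difference with high protein was -0.17, -0.03 and -0.15 in the 3 backgrounds, so all 3 lay below 0, yet HP-HS at 10.41 overlapped the normal protein arrays. The fitted protein effect was -0.12 ± 0.068 (SE).

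**Figure D2:**
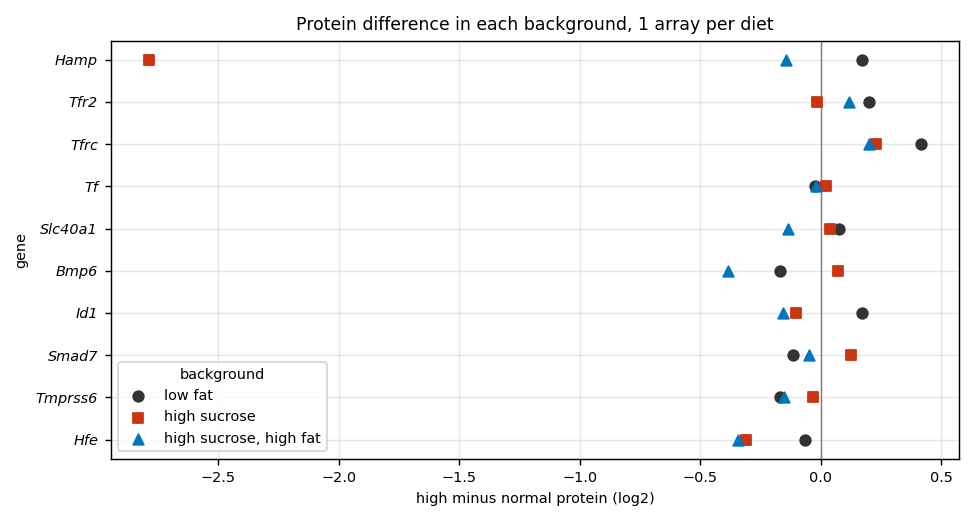
High minus normal protein difference (log2, horizontal axis) of each of the 10 genes in the low fat, high sucrose and high sucrose high fat backgrounds, each the difference between 2 arrays. Hamp on high sucrose is at -2.79, and the other 29 points lie between -0.38 and 0.42.

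Hfe, Tfr2 and Tfrc sense or take up transferrin iron, and Hfe and Tfrc were the members whose protein levels did not overlap. Tfrc is the transferrin receptor through which cells import iron, and its messenger is stabilised when cell iron is low (probe set 10754785). It stood at 10.09 on NP, 10.39 on NP-HS, 10.25 on NP-HS-HF, 10.51 on HP, 10.62 on HP-HS and 10.45 on HP-HS-HF. Every high protein array lay above every normal protein array, with means of 10.53 ± 0.086 and 10.24 ± 0.151 (SD, n = 3 arrays each). By background the difference was 0.42 (low fat), 0.23 (sucrose) and 0.20 (sucrose and fat). The fitted protein effect was 0.28 ± 0.074 (SE, 1.22-fold), which did not pass the limma test over all probe sets (adjusted p = 0.366).

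Hfe, the membrane protein whose loss causes hereditary haemochromatosis (probe set 10798444), stood at 7.86 on NP, 7.92 on NP-HS, 7.86 on NP-HS-HF, 7.80 on HP, 7.61 on HP-HS and 7.52 on HP-HS-HF. Here every high protein array lay below every normal protein array, by means of 7.64 ± 0.142 against 7.88 ± 0.036 (SD, n = 3 arrays each). The low fat pair differed by -0.07, the sucrose pair by -0.31 and the pair with sucrose and fat by -0.34. The fitted protein effect was -0.24 ± 0.080 (SE, 1.18-fold lower), not past the limma test (adjusted p = 0.47). Protein levels did not overlap in 2 of 10 members and in 14.9% of all probe sets tested. Those higher with high protein, as Tfrc was, made up 7.35% of probe sets, and those lower, as Hfe was, 7.58%. An exact two-sided permutation test of 3 arrays against 3 cannot go below p = 0.1. Tfrc and Hfe both had this value, which follows from the lack of overlap and adds nothing to it. The permutation also ignores the pairing of arrays by background.

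Tfr2, the hepatocyte receptor that senses transferrin iron (probe set 10757372), stood at 11.17 on NP, 11.34 on NP-HS, 11.30 on NP-HS-HF, 11.38 on HP, 11.33 on HP-HS and 11.42 on HP-HS-HF. The NP array was the lowest, and NP-HS overlapped the high protein arrays. Tf, transferrin itself (probe set 10919637), was the steadiest member, between 13.63 on HP and 13.68 on HP-HS, a range of 0.05. These values lie near the highest on any array, 13.92, and whether a difference shows fully there was not tested.

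Slc40a1, which encodes ferroportin, the target of hepcidin (probe set 10927780), stood at 10.13 on NP, 10.13 on NP-HS, 10.02 on NP-HS-HF, 10.20 on HP, 10.17 on HP-HS and 9.88 on HP-HS-HF. The HP-HS value lay within 0.04 of NP-HS. Its lowest arrays were the 2 with high fat, and the sucrose and fat effect was -0.21 ± 0.089 (SE, 1.16-fold lower, -0.11 at normal and -0.32 at high protein), not past the limma test (adjusted p = 0.953). It was -0.12 without HP-HS-HF and -0.31 without NP-HS-HF. Bmp6 had a sucrose and fat effect of -0.22 ± 0.119 (SE), -0.12 at normal and -0.33 at high protein, also not past the test (limma adjusted p = 0.98), and this was -0.057 without HP-HS-HF and -0.39 without NP-HS-HF. Ferroportin is made by macrophages too, and 12 of 12 macrophage markers were higher on average with high protein, summed to 4504 to 4827 on the NP arrays and 4954 to 5614 on the HP arrays. Of these 12 markers, 9 were highest on HP-HS, and 0 lay below the filter. Over all 20450 probe sets tested, 10100 were higher on average with high protein and 3060 were highest on HP-HS. The part of the macrophage markers in the values of Slc40a1, Tfrc or Hamp was not tested.

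Across the 4 effects (protein, sucrose, fat, sucrose and fat), 0 of the 9 members other than Hamp passed the limma test. For this, p was adjusted by Benjamini-Hochberg and set against 0.05. Hamp did not pass either, which is a description because its own values chose it. The share called among the 20450 probe sets was 0.044% for protein and 0% for the other 3 effects. An unadjusted p under 0.05 was reached by Tfrc and Hfe for protein (2 of the 9 members other than Hamp, 8.71% of all probe sets). For sucrose, fat, and sucrose and fat it was reached by 0 members (3.02%, 4.95% and 5.18% of all probe sets). An ordinary t statistic in place of the moderated one gave 0 members past either threshold in any effect. Of the 9 differences between 2 arrays, Hamp reached 1.5-fold in 4, and the other 9 members reached it in 0. The shares of all probe sets past 1.5-fold for the protein difference were 1.38% (low fat), 1.39% (sucrose) and 1.5% (sucrose and fat). For sucrose they were 0.866% at normal and 0.89% at high protein, for fat 0.934% and 1.27%, and for sucrose and fat 1.16% and 1.19%. The median protein effect of the 9 members other than Hamp was -0.013, beside -0.001 over all probe sets tested.

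Around the members stood 7 lists of iron genes, written with 115 symbols, of which 105 were measured and 103 passed the filter. Of these 103, 0 passed the limma test in any of the 4 effects. An unadjusted p under 0.05 was reached by 10 of 103 for protein, 5 for sucrose, 5 for fat and 11 for sucrose and fat. The corresponding shares of all probe sets tested were 8.71%, 3.02%, 4.95% and 5.18%. The median fitted protein effect of the 103 genes was -0.01, and their median range over the arrays was 0.22, beside 0.24 over all named genes tested. HP-HS was the lowest array for 16 and the highest for 15 of the 103. Among all 20450 probe sets tested it was the lowest for 3180 and the highest for 3060, a similar share.

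Of the 27 measured BMP-SMAD genes, all above the filter, 0 passed the test in either direction, with a median protein effect of -0.04. Hjv, hemojuvelin, the BMP co-receptor that hepatocytes need for hepcidin (probe set 10817547), stood at 10.03 on NP, 10.10 on NP-HS, 10.19 on NP-HS-HF, 9.97 on HP, 9.97 on HP-HS and 9.56 on HP-HS-HF. High protein arrays were lower than normal protein arrays in all 3 backgrounds for Hjv, and the lowest was HP-HS-HF, where Hamp was not low. The target Atoh8, a helix-loop-helix factor, ranged from 7.73 on NP-HS to 8.24 on HP-HS-HF, with 7.98 on HP-HS (protein effect 0.19 ± 0.067 SE, limma adjusted p = 0.494). Bmp2, the other endothelial ligand of this pathway, ranged from 7.20 on NP to 7.73 on NP-HS-HF, with 7.25 on HP-HS. The signal transducer Smad9 ranged from 5.14 on NP, at the level of the filter on low values, to 5.60 on HP-HS. The list's largest range was that of Hjv, 0.63.

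In the inflammatory arm, 16 genes of interleukin 6, STAT3 and the acute phase were measured and Il6 itself did not pass the filter. Of the 15 others 0 passed the test, and their median protein effect was -0.008. A2m, alpha-2-macroglobulin of the acute phase (probe set 10858408), stood at 7.29 on NP, 7.98 on NP-HS, 7.78 on NP-HS-HF, 7.78 on HP, 7.01 on HP-HS and 6.91 on HP-HS-HF. It was low on HP-HS, as Hamp was, and lower still on HP-HS-HF, where Hamp was not. Lbp, the lipopolysaccharide binding protein, stood at 11.02 on HP-HS and at 11.01 on NP, its lowest arrays, and at 11.61 on HP-HS-HF. Orm1, an acute phase glycoprotein, went the other way, with 11.46, 11.60 and 11.70 on the high protein arrays against 11.17 to 11.23 on the normal protein arrays (fitted effect 0.38 ± 0.076 SE, limma adjusted p = 0.219). Il1r1, a receptor of interleukin 1, ranged from 9.26 on NP to 9.75 on HP-HS-HF.

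**Figure D3:**
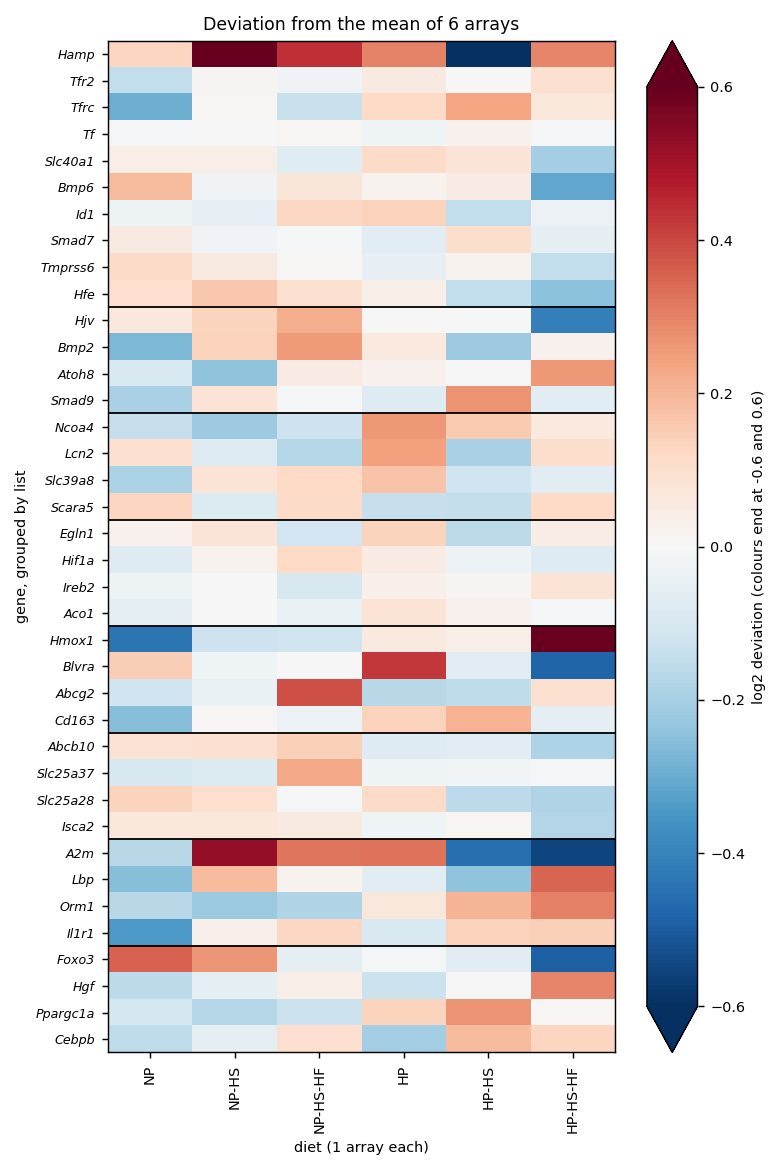
Deviation of the log2 level from the mean of the 6 arrays, for the 10 members (top) and for up to 4 genes with the largest range from each of the 7 iron lists, separated by lines; colours end at -0.6 and 0.6. On HP-HS, Hamp and A2m have the deepest blue. Hamp, at 6.94 against its mean of 8.91, lies past the end of the colours. A2m, at 7.01 against its mean of 7.46, does not.

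Iron uptake, storage and export genes varied little. Of 15 measured, Heph did not pass the filter, and 0 of the other 14 passed the test. Ncoa4, the receptor that delivers ferritin to autophagy (probe set 10786743), stood at 9.77 on NP, 9.70 on NP-HS, 9.79 on NP-HS-HF, 10.17 on HP, 10.07 on HP-HS and 9.97 on HP-HS-HF. All high protein arrays lay above all normal protein arrays, and the fitted effect of 0.32 ± 0.074 (SE, 1.25-fold) did not pass the limma test (adjusted p = 0.287). The siderophore-binding Lcn2 ranged from 6.62 on HP-HS to 7.06 on HP, the metal importer Slc39a8 from 8.69 on NP to 9.05 on HP, and the ferritin receptor Scara5 from 6.10 on HP-HS to 6.37 on NP. Outside the rule for named genes, the ferritin heavy chain, Fth1, had a range of 0.15 over the arrays and ferritin light chain, Ftl1, of 0.12. Ferritin genes have near-identical copies in the genome, so these probe sets are uncertain.

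Of 6 iron-responsive regulators, 0 passed the test, and the list's largest range was 0.30, that of the prolyl hydroxylase Egln1. Aco1 and Ireb2, the iron regulatory proteins that bind messengers such as that of Tfrc, ranged over 0.14 and 0.18, and Hif1a, the hypoxia-inducible factor, over 0.20.

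Of 18 measured haem genes, all above the filter, 0 passed the test. Hmox1, the haem oxygenase that releases iron from haem (probe set 10806122), stood at 7.01 on NP, 7.32 on NP-HS, 7.33 on NP-HS-HF, 7.51 on HP, 7.48 on HP-HS and 8.04 on HP-HS-HF. Its high protein arrays lay above all normal protein arrays, with a protein effect of 0.46 ± 0.110 (SE, 1.37-fold, limma adjusted p = 0.303). Hmox1 and Cd163, the haemoglobin receptor, are made by macrophages too, whose markers were higher with high protein as given above, and Cd163 is itself on that marker list. Cd163 ranged from 8.83 on NP to 9.29 on HP-HS. The biliverdin reductase Blvra ranged from 6.41 on HP-HS-HF to 7.31 on HP, and the porphyrin exporter Abcg2 from 5.51 on HP to 6.07 on NP-HS-HF.

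Red cell markers numbered 7, of which Ahsp and Rhag did not pass the filter. Their summed level was 2338 to 2816 on the NP arrays and 2402 to 2893 on the HP arrays, and HP-HS, at 2402, was the lowest high protein array. Stellate cell markers, 8 of 10 higher with high protein, summed to 2514 to 2904 on the NP arrays and 2699 to 3069 on the HP arrays, and bile duct markers, 4 of 5 higher and Cftr below the filter, to 279 to 303 and 306 to 327. For comparison, 10100 of the 20450 probe sets tested were higher on average with high protein. The part of red cells, stellate cells and bile duct cells in the values of the haem genes or of Hamp was not tested.

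Mitochondrial iron genes (10 measured and above the filter) and other factors known at the hepcidin gene (13 measured and above the filter) had 0 members past the test each. The mitochondrial transporter Abcb10 had a protein effect of -0.22 ± 0.070 (SE, limma adjusted p = 0.457), and Slc25a37, Slc25a28 and Isca2 had ranges of 0.32, 0.31 and 0.24. Among the factors, Foxo3, a forkhead factor restrained by insulin (probe set 10833814), stood at 9.86 on NP, 9.77 on NP-HS, 9.45 on NP-HS-HF, 9.50 on HP, 9.44 on HP-HS and 9.02 on HP-HS-HF. Its protein effect was -0.38 ± 0.066 (SE, limma adjusted p = 0.163) and its fat effect -0.37 ± 0.080 (SE, limma adjusted p = 0.81). Ppargc1a, the coactivator PGC-1 alpha, stood at 6.44, 6.58 and 6.32 on the high protein arrays, highest on HP-HS, against 6.14 to 6.21 on the normal protein arrays (protein effect 0.27 ± 0.081 SE, limma adjusted p = 0.417). Cebpb was also highest on HP-HS, at 7.92, and lowest on HP, at 7.52. Hgf, hepatocyte growth factor, was highest on HP-HS-HF at 9.54.

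The genes whose pattern was most like that of Hamp were sought among 101 named genes with a range of at least 1 on the log2 scale. Likeness was Pearson r of the log2 values over the 6 arrays, which share their pools and scale, and it is a description. Most like Hamp were Fabp7, a fatty acid binding protein (r = 0.988), Rgs16 (0.918), the carbonic anhydrase Car1 (0.841), Arrdc3, an arrestin domain protein (0.743), and the gamma-secretase subunit Aph1b (0.723). Fabp7 stood at 8.91 on NP, 9.19 on NP-HS, 9.08 on NP-HS-HF, 8.89 on HP, 8.17 on HP-HS and 8.90 on HP-HS-HF. It was lowest on HP-HS and highest on NP-HS, as Hamp was, and over the 5 arrays without HP-HS its r was 0.919. Rgs16 stood at 11.51, 11.98, 11.53, 10.76, 9.52 and 10.99 in the same order. All its high protein arrays were below the normal protein arrays, unlike those of Hamp, and without HP-HS its r was 0.648. The r of Car1, Arrdc3 and Aph1b without HP-HS was 0.496, 0.382 and 0.640.

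Most opposite to Hamp were the citrate transporter Slc13a5 (r = -0.877), the carbonic anhydrase Car12 (-0.704), Trim36 (-0.674), the prolactin receptor Prlr (-0.658) and the aromatic amino acid transporter Slc16a10 (-0.648). Slc13a5 stood at 6.46, 6.38 and 6.41 on the normal protein arrays and at 7.11 on HP, 7.72 on HP-HS and 6.72 on HP-HS-HF. Without HP-HS its r was -0.391, and that of Car12 -0.329, of Trim36 -0.571 and of Slc16a10 -0.464. Prlr went the other way, to -0.922 without HP-HS. For Tfrc, the most like of 102 genes were the sterol reductase Tm7sf2 (r = 0.987), the tryptophan pathway enzyme Acmsd (0.927) and the mitochondrial carrier Slc25a21 (0.919). Tm7sf2 stood at 7.82 on NP, 8.56 on NP-HS, 8.28 on NP-HS-HF, 8.90 on HP, 9.07 on HP-HS and 8.88 on HP-HS-HF, lowest on NP and highest on HP-HS like Tfrc. Most opposite to Tfrc were the phosphate transporter Slc34a2 (-0.979), Cav2 of caveolae (-0.849) and Dpp6 (-0.837).

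**Figure D4:**
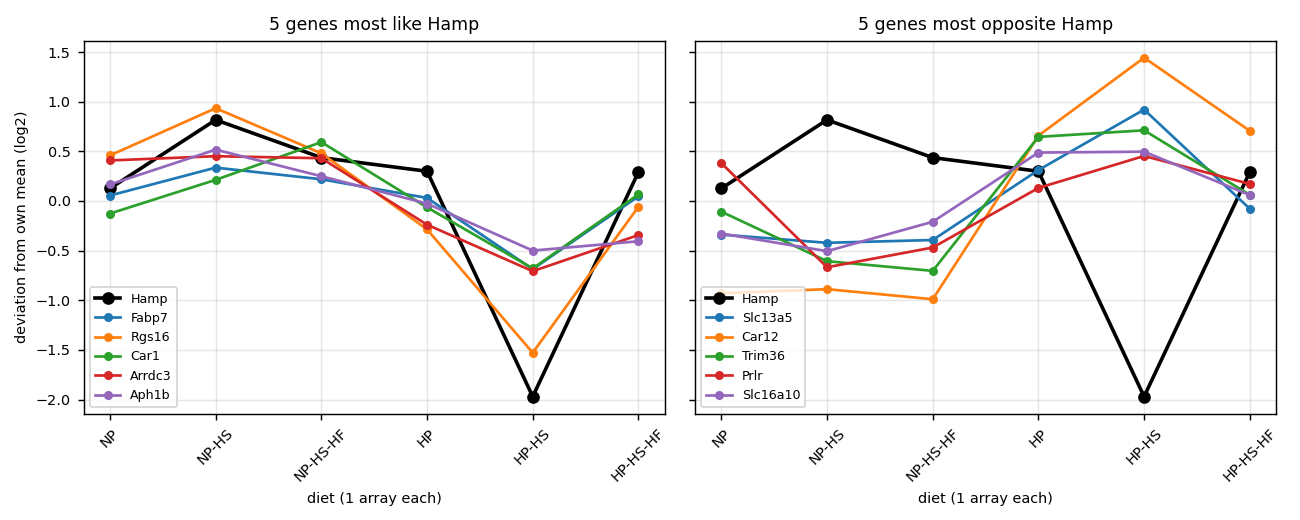
Deviation of the log2 level from the gene's own mean of 6 arrays, for Hamp (black) and the 5 genes most like it (left) or most opposite to it (right) by Pearson r. Hamp and all 5 genes most like it have their lowest point on HP-HS (Hamp 6.94 and Rgs16 9.52 before centring). All 5 opposite genes, Slc13a5 among them, have their highest point there.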

How the data were processed

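The authors deposited 1 table of log2 expression values for 6 arrays (Affymetrix whole-transcript, per the labels' protocols), each a pool of liver RNA from 5 rats at 1500 ng per rat. Each value summarises a probe set with RMA, per the submitters' processing notes, which here name no version or settings. The labels' source fields say mice and the organism field rat, and rat was taken. Of 29214 probe sets, 15310 had 1 symbol in the platform annotation, 323 several, and 13581 were not listed. No genome build is named for the probe sets.

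Probe sets with a mean above the 30th percentile (log2 5.14) were fitted, 20450 in all, with limma 3.58.1 in R 4.3.3, with terms for protein level and background. This leaves 2 residual degrees of freedom (prior 4.37). With no replicate array, a p-value rests on array noise mixed with the interaction of protein with background, and not on the spread between rats. A call needed p under 0.05 after Benjamini-Hochberg adjustment. The model was checked on simulated data with independent noise and a protein shift equal in all backgrounds. Without an interaction in those data, the check cannot show how well the additive model suits these arrays. A protein by background interaction leaves no residual degrees of freedom, so differences between 2 arrays are values. Members and lists were chosen with earlier results of these data known. From each list up to 4 genes with the largest range, and any past the test, were named, with 5 genes most like and 5 most opposite Hamp and 3 each for Tfrc. Alternatives were other filters, scalings, weights, priors and left-out arrays.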

Additional observations from a re-analysis of the deposited data

Results flagged for a closer look

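Hamp went in opposite directions at the 2 protein levels, by 1.2-fold or more each way, for sucrose and for fat. Sucrose differed by 0.69 at normal protein and by -2.27 at high protein, and added fat by -0.38 at normal protein and by 2.26 at high protein (log2). Both high protein values contain the HP-HS array, and with 1 array per diet the difference between protein levels was not tested. No other member met this criterion for sucrose, fat, sucrose and fat, or protein. The pattern was not confined to Hamp beyond the members. For sucrose at normal and high protein, A2m (0.69 and -0.78), Bmp2 (0.41 and -0.28) and Slc39a8 (0.27 and -0.29) met it among the named list genes. The share of all probe sets that met it is not given here.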

How the results depend on the processing

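No paired analysis was possible because the labels give no replicate numbers to use as a block. The protein effect itself matches high with normal protein arrays within each of the 3 backgrounds. In all alternatives fitted, 0 members passed the test for any of the 4 effects, Hamp being counted as a description only. The 9 Hamp differences moved by less than 0.132 (log2), the spread taken from the prior SD, under median centring and quantile normalization. At 2-fold in place of 1.5-fold, 3 rather than 4 of the Hamp differences counted. With the arrays left out in turn, the fitted protein effect ranged from -1.47 to 0.01 for Hamp, -0.048 to 0.057 for Slc40a1, -0.13 to 0.035 for Id1 and -0.082 to 0.039 for Smad7. For Hamp the sucrose effect ranged from -2.19 to 0.61, the fat effect from -0.46 to 2.34 and the sucrose and fat effect from -0.67 to 0.97. The protein effect of Slc40a1 was 0.0026 under quantile normalization, and that of Smad7 was 0.013 with array weights. Tfrc kept a protein effect between 0.21 and 0.32 and Hfe between -0.33 and -0.19 with any 1 array left out, and their adjusted p ranged from 0.204 to 0.769 and from 0.365 to 0.906 over the alternatives. Of 25 further fitted member differences, 13 changed sign when an array was left out and 1 under another alternative, and 0 passed the test. Each member has 1 probe set, so averaging probe sets changed nothing. Protein was not fitted on the arrays of its contrast alone, because these are all the arrays.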
